A study of Mus musculus with 6 samples.

Results

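Neurites in the inner plexiform layer of the retina are sorted into sublayers by adhesion molecules of the immunoglobulin superfamily, and the genes described here are *Dscam* and *Dscaml1*, the sidekick genes *Sdk1* and *Sdk2*, and the contactin genes *Cntn1* to *Cntn5*. They were taken by symbol from the gene table of a retina RNAseq study. Of 9 symbols searched, 8 were listed among the 11339 genes of the table, and *Cntn3* was not analysed here. The study asked what loss of the histone H3 lysine 4 methyltransferase MLL1 does to the developing retina. It compared whole retinas at postnatal day 14 (P14) between *Mll1KO* mice (genotype MLL1 fl/fl, Chx10-Cre) and wild type (WT) mice, with 3 libraries in each group, labelled a, b and c, and the strain of both groups was given as C57Bl6/J. In *Mll1KO* mice both copies of the gene carry loxP sites, and the *Chx10* promoter drives Cre recombinase in retinal progenitor cells. Each sample held a pair of retinas. The labels give the WT group neither the floxed allele nor the Cre transgene, so deletion, floxed allele and Cre cannot be told apart in this comparison. Library totals, inferred from the deposited expression values, were 17961097 to 23836033 reads. Genes of the table held 98.4% to 98.5% of these totals, which need not equal the sequenced or mapped reads.

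Sidekicks and DSCAM proteins are transmembrane molecules that bind a copy of themselves on the facing cell, and in the chick retina different members of this group mark different sublayers. In the mouse retina, DSCAM and DSCAML1 also keep neurites and cell bodies of one type from clumping, so that cells stay spaced in a mosaic. Contactins are held in the membrane by a lipid anchor and act with partners in the same or the facing membrane, among them contactin-associated proteins, receptor phosphatases and L1 family proteins.

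*Kmt2a* (the current symbol of *Mll1*; ENSMUSG00000002028) checks the labels. Its level, in reads scaled to gene length and library total (RPKM), was 36.1, 36.9 and 34.6 in WT a, b and c and 22.9, 20.4 and 22.3 in *Mll1KO* a, b and c. All *Mll1KO* libraries lay below all WT libraries, and the *Mll1KO* mean was 60.9% of the WT mean. The value sums reads over the whole gene, of which the loxP sites flank only a part.

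*Dscaml1*, *Dscam*, *Cntn4*, *Sdk1*, *Cntn1* and *Sdk2* were lower in *Mll1KO* than in WT, by 12.5% to 27.5% of the mean RPKM, and *Cntn2* and *Cntn5* were not called in either direction. Genes were called at an adjusted p under 0.05 by limma on log2(RPKM + 1), with Benjamini-Hochberg adjustment over all 11339 genes. So 6 of 8 members were called, all lower, while 23.3% of all genes were called in either direction, 14.5% lower and 8.81% higher. The same 6 members had every *Mll1KO* library below every WT library, as did 26.5% of all genes. Over the 8 members the median log2 fold change was -0.25, and over all genes it was -0.03. Among all calls 62.2% were lower and 37.8% higher. With trimmed mean of M values (TMM) scaling of the libraries the split was 48.1% lower and 51.9% higher. Under it 5 members were called, all lower, with *Sdk2* no longer among them, while 10.3% of all genes were called lower. In bulk samples such as these, fewer cells of a type and less RNA per cell cannot be told apart.

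**Figure D1:**
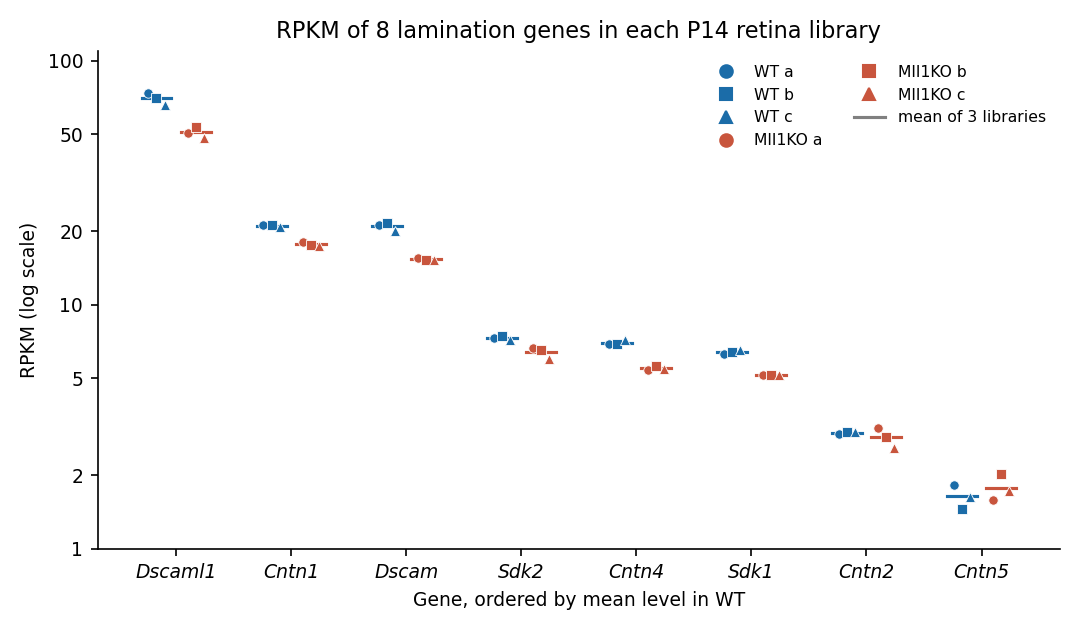
RPKM on a log axis of the 8 members in each of 6 libraries, WT in blue and *Mll1KO* in red, with a marker shape for each replicate letter and a bar at the mean of 3 libraries. From *Dscaml1* (WT mean 70.2) to *Sdk1* (WT mean 6.42) the red points lie below the blue ones in each gene, and in *Cntn2* and *Cntn5* they overlap.

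*Dscam* (ENSMUSG00000050272; chromosome 16 from 96590840 to 97170752, minus strand, GRCm38) encodes the founding member of the DSCAM family. Its RPKM was 21.3, 21.6 and 20.1 in WT and 15.5, 15.2 and 15.3 in *Mll1KO*, replicates a, b and c in turn. The *Mll1KO* libraries were close to each other, and the highest of them was well below the lowest WT library. The level fell from 21.0 ± 0.783 to 15.3 ± 0.173 (SD, n = 3 each), a log2 fold change of -0.43 with a standard error (SE) of 0.04 (limma adjusted p = 0.000159). These values rest on 2056 to 3808 reads per library.

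*Dscaml1* (ENSMUSG00000032087; chromosome 9 from 45426628 to 45753712, plus strand) is the paralog of *Dscam*. It was the most abundant member, with an RPKM of 74.1, 70.7 and 65.7 in WT and 50.5, 53.6 and 48.5 in *Mll1KO*. The spread within each group was wider than for *Dscam*, but the groups did not overlap. Its mean fell by 27.5%, a log2 fold change of -0.46 (SE 0.05; limma adjusted p = 0.000381). *Dscam* and *Dscaml1* were called lower in each alternative analysis that kept at least 2 libraries per group. The authors' RPKM used a gene length of 6336 bases for *Dscaml1* and 7498 for *Dscam*, against 8909 and 8800 in the annotation used here. Levels of these genes relative to others depend on that length.

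Within a library, the ratio of *Dscaml1* to *Dscam* RPKM is free of library scaling. It was 3.48, 3.28 and 3.27 in WT and 3.24, 3.52 and 3.18 in *Mll1KO*, so the groups overlapped. The mean log2 ratio was 1.74 ± 0.05 in WT and 1.73 ± 0.08 in *Mll1KO* (SD, n = 3; exact permutation test, two-sided, p = 0.8). With 3 libraries against 3 that test cannot give a p below 0.1. The difference of -0.01 in mean log2 ratio changed sign when WT a, *Mll1KO* a or *Mll1KO* c was left out, with a range of -0.0568 to 0.0176.

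*Sdk1* (ENSMUSG00000039683; chromosome 5 from 141241490 to 142215586, plus strand) had an RPKM of 6.31, 6.41 and 6.54 in WT and 5.16, 5.18 and 5.15 in *Mll1KO*. The *Mll1KO* libraries were nearly identical and all below WT. Its mean fell by 19.6%, a log2 fold change of -0.27 (SE 0.05; limma adjusted p = 0.00373).

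*Sdk2* (ENSMUSG00000041592; chromosome 11 from 113776374 to 114067046, minus strand), which in the mouse retina links VG3 amacrine cells with W3B ganglion cells, had an RPKM of 7.35, 7.46 and 7.16 in WT and 6.66, 6.55 and 6.0035 in *Mll1KO*. *Mll1KO* c was the lowest library, and the gap between the groups was narrower than for the other called members. The log2 fold change of -0.17 (SE 0.05) lay close to the threshold (limma adjusted p = 0.0476). The call was lost in 10 of 16 alternatives, 1 of which had a single WT library, with a limma adjusted p of 0.0921 under TMM scaling. In fits with at least 2 libraries per group, the limma adjusted p ran from 0.0001 under rod scaling to 0.1575 without *Mll1KO* c. Leaving out WT a, WT b, WT c, *Mll1KO* b or *Mll1KO* c each ended it, with a log2 fold change of -0.19 to -0.13 over the 6 fits without a library.

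The ratio of *Sdk2* to *Sdk1* RPKM was 1.16, 1.16 and 1.10 in WT and 1.29, 1.26 and 1.17 in *Mll1KO*. The lowest *Mll1KO* value barely cleared the highest WT value, at 0.2206 against 0.2191 in log2. The mean log2 ratio was 0.19 ± 0.05 in WT and 0.31 ± 0.08 in *Mll1KO* (SD, n = 3), a difference of 0.12 (two-sided p = 0.1 by exact permutation, with no lower p possible). With 1 added to each RPKM the difference was 0.10 (exact permutation p = 0.3).

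Among the contactins, *Cntn1* (ENSMUSG00000055022; chromosome 15 from 92051165 to 92341967, plus strand), a contactin of neurons and glia that also joins contactin-associated protein 1 at the paranode, was the most abundant. Its RPKM was 21.3, 21.3 and 20.8 in WT and 18.0, 17.6 and 17.5 in *Mll1KO*. All WT libraries were above all *Mll1KO* libraries, and the spread within each group was small. The log2 fold change was -0.24 (SE 0.04; limma adjusted p = 0.00221).

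*Cntn4* (ENSMUSG00000064293; chromosome 6 from 105677660 to 106699310, plus strand) is known to guide axons of ganglion cells to the accessory optic system. Its RPKM was 6.88, 6.91 and 7.17 in WT and 5.41, 5.62 and 5.47 in *Mll1KO*. The groups were far apart relative to their spread. The log2 fold change was -0.30 (SE 0.05; limma adjusted p = 0.00235).

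*Cntn2* (TAG-1; ENSMUSG00000053024; chromosome 1 from 132509427 to 132543256, minus strand), found on growing axons, had an RPKM of 2.97, 3.01 and 2.998 in WT and 3.14, 2.86 and 2.59 in *Mll1KO*. *Mll1KO* a was above every WT library, and *Mll1KO* b and c were below them. The log2 fold change was -0.05 (95% interval -0.19 to 0.09; limma adjusted p = 0.603). It was 0.0026 without *Mll1KO* c.

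*Cntn5* (ENSMUSG00000039488; chromosome 9 from 9660891 to 10904775, minus strand), which shapes the dendrites of an ON-OFF ganglion cell type together with contactin-associated protein 4, was the least abundant member. Its RPKM was 1.82, 1.46 and 1.63 in WT and 1.59, 2.02 and 1.72 in *Mll1KO*, from 131 to 197 reads per library, and the groups overlapped. The log2 fold change was 0.07 (95% interval -0.09 to 0.24; limma adjusted p = 0.514). Without *Mll1KO* b it was 0.0097 and without WT a 0.12. Of the exon bases of *Cntn5*, 6.4% overlap another annotated gene on the opposite strand, and whether the counting used strand is not given in the sources used here.

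The libraries were also scaled to an equal sum over 19 rod marker genes, since rods make up most retinal cells. Over all genes, this moved the median log2 fold change from -0.03 to -0.29. Relative to the median of all genes under that scaling, *Dscam* was at -0.42, *Dscaml1* at -0.46, *Cntn4* at -0.26, *Sdk1* and *Cntn1* both at -0.23, *Sdk2* at -0.14, *Cntn2* at 0.02 and *Cntn5* at 0.18. Before any shift is taken off, the value of *Cntn5* turned to -0.11 under this scaling, and *Cntn2* was called lower at -0.27 (limma adjusted p = 0.0028). Relative to the median under TMM scaling, *Dscam* was at -0.40, *Dscaml1* at -0.42 and *Sdk2* at -0.14.

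**Figure D2:**
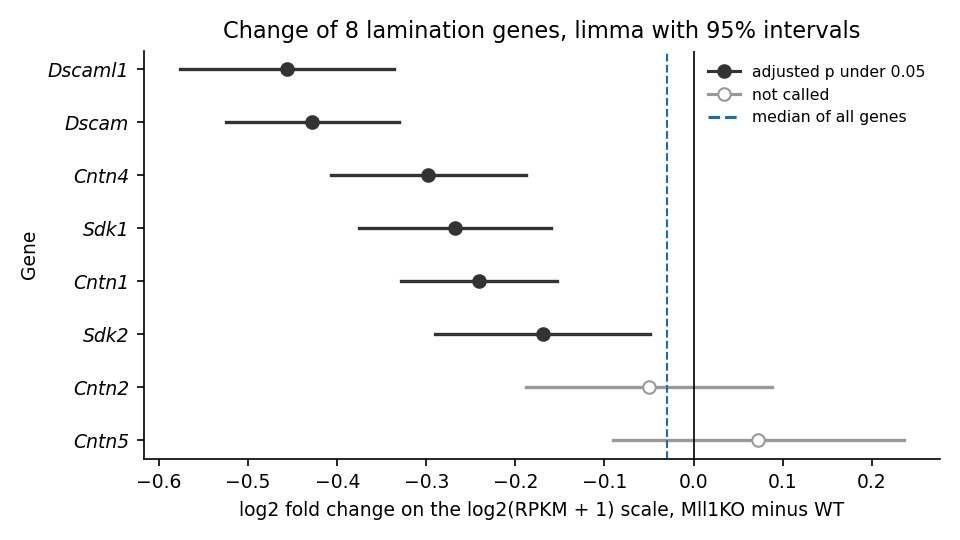
log2 fold change of each member on the log2(RPKM + 1) scale, *Mll1KO* minus WT, with 95% intervals from limma; filled points were called, open points were not, and the dashed line is the median of all genes (-0.03). The interval of *Sdk2* ends at -0.05, nearest to 0 among the called members, and those of *Cntn2* and *Cntn5* cross 0. Under rod scaling, which moves the median of all genes to -0.29, the value of *Cntn5* is -0.11. Relative to the median of all genes *Cntn5* is at 0.18 there and at 0.10 in the main fit. Taking off the median largely undoes the scaling, so the shared sign is no separate evidence.

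In order of mean level in WT, *Dscaml1* (RPKM 70.2) was followed by *Cntn1* (21.1) and *Dscam* (21.0), whose ranges over the 3 libraries overlapped. *Sdk2* (7.32) and *Cntn4* (6.99) came next, again with overlapping ranges, and then *Sdk1* (6.42), *Cntn2* (2.99) and *Cntn5* (1.64), each apart from its neighbours. In *Mll1KO* the order of means was the same, and no neighbouring ranges overlapped. The overlap of *Dscam* with *Cntn1* in WT rests on the authors' gene length. With the annotated exon length, an alternative chosen after seeing the data, *Dscam* in WT was at 17.1 to 18.4, below *Cntn1* at 20.8 to 21.3, and the order was otherwise the same. By WT level, *Dscaml1* was at percentile 95.8 of all genes and *Dscam* and *Cntn1* at 76.7 and 76.8, whereas *Cntn5* was at 3.56.

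The 4 contactin members listed, without *Cntn6*, which was not among the symbols searched, summed to an RPKM of 32.7 ± 0.181 in WT and 27.8 ± 0.501 in *Mll1KO* (SD, n = 3). *Cntn1* held 63.8% to 65.1% of that sum in WT and 62.7% to 64.2% in *Mll1KO*, ranges that overlap. The share of *Cntn4* was 20.9% to 22.0% in WT and 19.2% to 20.1% in *Mll1KO*, with no overlap. The shares of *Cntn2* (9.01% to 9.22% and 9.48% to 11.2%) and *Cntn5* (4.48% to 5.54% and 5.64% to 7.19%) were higher in *Mll1KO* without overlap, and shares of one sum cannot move independently.

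Of 18 further genes of the contactin pathway, 16 were listed (*Cntnap3* and *Cntnap5c* were not analysed here), and 6 were called lower and 5 higher, with a median log2 fold change of -0.03. The sixth contactin gene, *Cntn6*, was lower, with an RPKM of 2.54, 2.25 and 2.26 in WT and 1.59, 1.48 and 1.70 in *Mll1KO* (log2 fold change -0.37, limma adjusted p = 0.00181). *Ptprz1*, a receptor phosphatase that binds *Cntn1* protein, was lower at -0.48, and *Cntnap2*, the partner of *Cntn2* protein at the juxtaparanode, was lower at -0.21. *Cntnap4*, the partner of *Cntn5* protein in retina, was higher at 0.26, as were *Cntnap5a* at 0.24 and the L1 family gene *Chl1* at 0.34. Under scaling by median ratios (RLE) 9 were called and 3 of these were lower. Most calls were then higher, as were 53.1% of calls over all genes. Of 12 genes for signalling and scaffold partners of DSCAM and sidekick proteins, 11 were listed (*Ntn1* was not analysed here). Of these *Fyn*, a tyrosine kinase, was the one called, at a log2 fold change of -0.29 (limma adjusted p = 0.00136). The scaffold genes *Magi1*, *Magi2* and *Magi3*, whose proteins bind sidekick tails, were not called, at -0.17, -0.08 and 0.10. Under rod scaling all 11 were called lower, as were 12 contactin partners with none higher, and so were 81.4% of all genes.

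All 16 genes for other cues of sublayer choice and cell spacing were listed, and 8 were called lower and 1 higher, with a median log2 fold change of -0.21. *Sema5b*, one of the semaphorins that confine neurites to the inner plexiform layer, had an RPKM of 8.52, 9.33 and 8.22 in WT and 4.501, 4.84 and 4.18 in *Mll1KO*, a log2 fold change of -0.82 (limma adjusted p = 4.1e-05). *Sema6a*, which separates ON from OFF sublayers, fell by 0.52 and the teneurin gene *Tenm3* by 0.50 on the log2 scale. *Cdh9*, a cadherin gene of ON-type bipolar cells, was higher at 0.41. Of 30 listed genes for other neuronal adhesion molecules of the immunoglobulin superfamily (of 32, *Kirrel2* and *Robo3* not analysed here), 14 were called lower and 6 higher, with a median of -0.13. *Robo2* was at -0.46, *Mcam* at -0.40 and *Igsf9b* at -0.36, and *Alcam* at 0.34, *Nectin3* at 0.30 and *Igsf9* at 0.26. Under TMM scaling 8 of the 30 were called lower, as were 10.3% of all genes.

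Markers of retinal cell types did not all move the same way, and their part in the members' values was not tested. Of 13 listed ganglion cell markers 12 were called lower, and their summed RPKM was 563, 541 and 566 in WT and 420, 388 and 368 in *Mll1KO*. The most abundant was *Sncg* at -0.55, *Rbpms2* was lowest at -0.89, *Slc17a6* was highest at -0.15 and not called, and *Pou4f3* and *Isl2* were not analysed here. Of 19 bipolar cell markers 10 were called lower and none higher. Their sum was 960, 961 and 944 in WT and 843, 847 and 852 in *Mll1KO*, from *Lhx4* at -0.69 to *Rgs11* at 0.12, with *Gnb3*, the most abundant, at -0.01. The 15 listed amacrine cell markers split, with 6 lower and 4 higher, from *Calb2*, the most abundant, at -0.50 to *C1ql2* at 0.35. Under TMM scaling 13 were called and 6 of these were lower. Most calls were then higher, as were 51.9% of calls over all genes. Under rod scaling 8 were called, all of them lower, as were 81.4% of all genes. The amacrine sum was 702, 701 and 724 in WT and 647, 631 and 666 in *Mll1KO*, and this fall came from *Calb2*, whose mean went from 255 to 180 while the mean sum went from 709 to 648. *Th*, *Ptf1a* and *Neurod6* were not analysed here. Beside -0.25 for the 8 members, median log2 fold changes were -0.50 for ganglion, -0.40 for horizontal, -0.15 for bipolar, 0.07 for amacrine, 0.08 for Muller glia and 0.23 for rod markers.

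Of 9 listed horizontal cell markers 8 were called lower, with a sum of 198, 199 and 193 in WT and 138, 141 and 152 in *Mll1KO*. They ran from *Slc4a3* at -0.70 to *Calb1* at -0.13, *Sept4* was the most abundant, and *Lhx1* and *Gja10* were not analysed here. Of 19 rod markers 12 were called higher and 1 lower, and the sum over them rose from 19640, 18581 and 19047 to 23290, 23806 and 23059. *Pde6a* was highest at 0.48 and *Nr2e3* lowest at -0.36. Of 14 Muller glia markers 6 were higher and 2 lower, from *Clu* at 0.68 to *Crym* at -0.98, with *Glul* the most abundant and sums of 1741, 1717 and 1875 in WT and 2127, 2205 and 2176 in *Mll1KO*. Under rod scaling 12 of them were called and 8 of these were lower, while 81.4% of all genes were then called lower.

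Markers of the retinal pigment epithelium (RPE) and choroid set 3 libraries apart. Their sum was 203, 102 and 309 in WT and 89.0, 189 and 92.3 in *Mll1KO*, with *Ttr* the most abundant, while none of 5 listed markers was called by limma. *Rpe65*, *Best1*, *Tyr* and *Lrat* were not analysed here. Log2 fold changes were also taken among the 3 libraries with the lowest sums (WT b, *Mll1KO* a and *Mll1KO* c), an alternative chosen after seeing the data. No calls are given there, since a lone WT library has no spread of its own. *Dscam* was at -0.46, *Dscaml1* at -0.51, *Sdk1* at -0.27, *Cntn4* at -0.30, *Cntn1* at -0.25 and *Sdk2* at -0.21.

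Genomic span did not enter the choice of genes, and most members are long. A genomic span of at least 200 kb was annotated for 7 of 8 members, up to 1243885 bases for *Cntn5*, while *Cntn2* spans 33830 bases. Of all 786 listed genes of that span, 23.2% were called lower and 11.2% higher, with a median log2 fold change of -0.05. Every called member had a span of at least 200 kb. The longest member, *Cntn5*, was not called, and neither was the shortest, *Cntn2*. *Cntn5* and *Cntn2* were also the least abundant members, and whether span bears on the changes was not tested.

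*Dscaml1* lies on the same chromosome as the floxed gene, 545 kb past the end of *Kmt2a* (chromosome 9 from 44803355 to 44881296, minus strand). Within 1 Mb of *Kmt2a* 34 other genes were listed, of which 12 were called lower and 4 higher, with a median log2 fold change of -0.13. Without *Dscaml1* the count was 11 lower of 33, or 33.3%. Within 2 Mb 44 genes were listed and the same 12 were the ones called lower, or 27.3%, and on all of chromosome 9 the share was 16.9%. The 3 genes between them were *Ube4a* at -0.12 and *Scn2b* at -0.10, not called, and *Fxyd6*, called higher at 0.32. The nearest gene past *Dscaml1*, *Cep164*, was at -0.02. Besides *Dscaml1* the genes called lower included *Mfrp* at -0.76, *Rnf26* at -0.57, *Nlrx1* at -0.44, *Mcam* at -0.40, *Nectin1* at -0.33, *Thy1* at -0.27, *Gm16536* at -0.22, *Cbl* and *Rnf214* both at -0.18, and *C2cd2l* at -0.15. Those called higher, besides *Fxyd6*, were *Usp2* at 0.51, *Ift46* at 0.23 and *Tmem25* at 0.15, the latter pair next to *Kmt2a*. Under TMM scaling 20.6% of the 34 were called lower in place of 35.3%, while the share of all genes called lower went from 14.5% to 10.3%.

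**Figure D3:**
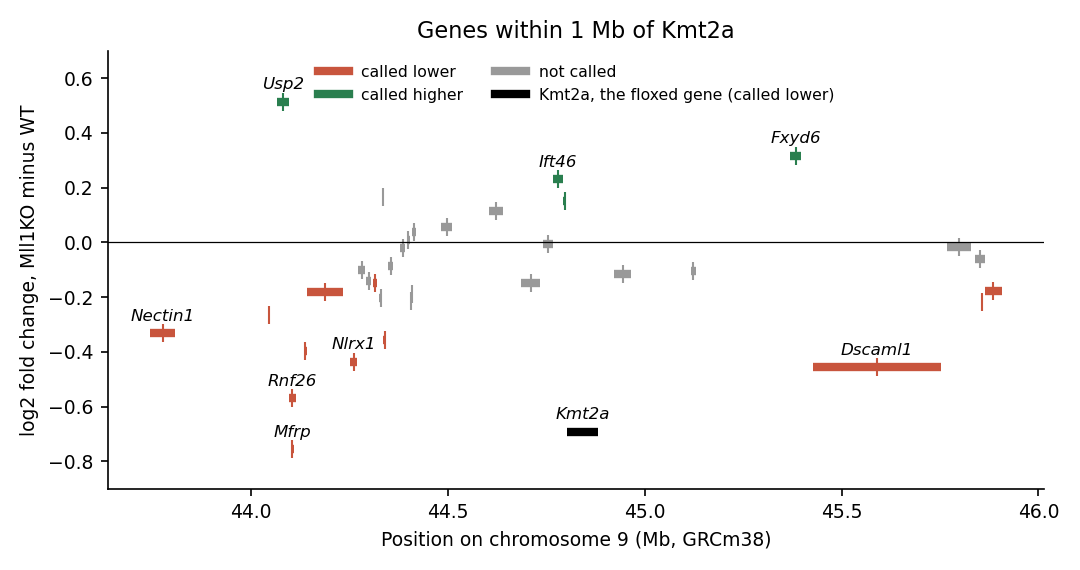
log2 fold change on the log2(RPKM + 1) scale, *Mll1KO* minus WT, of the genes within 1 Mb of *Kmt2a* by position on chromosome 9 in Mb (GRCm38). Each horizontal bar spans a gene and each vertical tick marks its middle; *Dscaml1* at -0.46 lies between *Fxyd6* at 0.32 and *Cep164* at -0.02.

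For each called member, the closest pair of genes was taken by the root mean square (RMS) difference of centred log2(RPKM + 1) over the 6 libraries. For *Dscam* these were *Rsph9* (RMS 0.016) and *Jakmip2* (0.0233), and for *Dscaml1* they were *Nid1* (0.0358) and *Ptprz1* (0.0398). *Sdk1* was closest to *Dclk2* (0.0136) and *Mturn* (0.0142), *Sdk2* to *Celsr3* (0.013) and *Airn* (0.0159), and *Cntn1* to *Satb1* (0.0152) and *Ddx39b* (0.0172). *Cntn4* was closest to *Fyn* (0.0123) and to another member, *Sdk1* (0.0205).

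MLL1 carries a CXXC domain that binds unmethylated CG dinucleotides, and CG counts therefore describe the members' promoters. RefSeq promoters (GRCm38.p6; 300 bases, from 250 before to 50 after a gene start, the first entry along the strand where a gene had several) were matched for 7 of 8 members, with none used here for *Dscaml1*. The letters CG were counted, which read the same on both strands. Across 27025 genes the median was 7. *Sdk1* had 54 (at least as many in 0.355% of promoters), *Sdk2* 41 (3.33%), *Dscam* and *Cntn5* 26 each (16.8%), *Cntn2* 13 (38.5%), *Cntn1* 9 (46.2%) and *Cntn4* 4 (68.1%). The entries of *Cntn4* and *Cntn2* lie inside the annotated genes, past the annotated starts, so their counts do not describe those starts. The other called members with an entry span from 9 to 54. Whether these counts bear on the changes was not tested. *Dscam*, which fell, had the same count as *Cntn5*, which was not called. *Cntn5* rests on 131 to 197 reads per library, against 2056 to 3808 for *Dscam*. These sequences show that pair, the member with most CG, and *Cntn2*, also not called, on the strand of each gene (chr16:97170686-97170985 for *Dscam*, chr9:10904726-10905025 for *Cntn5* and chr1:132542891-132543190 for *Cntn2*, all minus, and chr5:141241284-141241583, plus, for *Sdk1*), with each CG in capitals.
Dscam: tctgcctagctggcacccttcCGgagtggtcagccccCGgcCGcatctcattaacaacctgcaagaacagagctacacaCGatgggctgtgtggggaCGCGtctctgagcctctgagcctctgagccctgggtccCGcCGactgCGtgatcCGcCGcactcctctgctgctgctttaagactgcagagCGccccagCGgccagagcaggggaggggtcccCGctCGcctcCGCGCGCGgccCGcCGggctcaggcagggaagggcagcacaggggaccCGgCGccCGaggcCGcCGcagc
Cntn5: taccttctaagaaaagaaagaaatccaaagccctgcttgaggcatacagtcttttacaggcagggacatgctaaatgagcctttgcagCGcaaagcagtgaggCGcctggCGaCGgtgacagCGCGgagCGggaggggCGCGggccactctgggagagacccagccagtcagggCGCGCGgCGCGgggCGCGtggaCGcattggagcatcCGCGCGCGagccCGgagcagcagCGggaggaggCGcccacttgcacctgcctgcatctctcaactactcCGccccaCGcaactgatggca
Sdk1: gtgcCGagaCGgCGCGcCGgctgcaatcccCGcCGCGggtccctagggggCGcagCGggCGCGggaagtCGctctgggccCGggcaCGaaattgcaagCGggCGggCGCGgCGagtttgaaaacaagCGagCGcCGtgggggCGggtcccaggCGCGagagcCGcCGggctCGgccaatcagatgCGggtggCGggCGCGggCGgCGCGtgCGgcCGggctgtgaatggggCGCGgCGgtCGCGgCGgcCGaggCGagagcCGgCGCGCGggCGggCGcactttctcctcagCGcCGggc
Cntn2: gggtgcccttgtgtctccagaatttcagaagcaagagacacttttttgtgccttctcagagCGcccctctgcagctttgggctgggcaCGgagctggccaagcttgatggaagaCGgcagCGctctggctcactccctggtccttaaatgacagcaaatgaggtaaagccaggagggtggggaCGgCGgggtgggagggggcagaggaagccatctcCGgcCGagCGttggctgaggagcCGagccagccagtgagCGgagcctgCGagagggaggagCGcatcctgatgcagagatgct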

How the data were processed

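Retinal mRNA was sequenced as single-end reads, which the authors aligned with STAR 2.0.4b to the mouse genome, counted per gene with featureCounts 1.45 and compared with edgeR 3.17.9 (versions from the submitters' processing notes). The notes give the build as mm10; the published methods write the build differently and name another version of the comparison tool. The deposited table gives RPKM by the authors, for genes with CPM above 5 in at least 5 samples. Its columns of fold change, mean level, p-value and false discovery rate hold the authors' own comparison and were not used.

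From 11404 lines, 11339 genes were kept (59 identifiers repeated). Whole reads within 0.02 were recovered for 100% of genes and used for the library totals and for an alternative fit. RPKM are not counts, so limma 3.58.1 in R 4.3.3 was fitted with a mean-variance trend to log2(RPKM + 1) of all 6 libraries, *Mll1KO* minus WT, and tested on simulated data. A fold change on this scale understates the change of weakly expressed genes. Ratios were compared by exact permutation. Sources call the samples biological replicates, and p-values measure the spread between them.

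The members and lists were chosen with earlier results of these data known. Named genes are the members and *Kmt2a*; in partner and adhesion lists the called genes with the 3 highest and the 3 lowest log2 fold changes; in marker lists mostly the highest, lowest and most abundant gene; most called genes within 1 Mb of *Kmt2a*; and the nearest pair of each called member. Others (*Magi1*, *Magi2*, *Magi3*, *Ube4a*, *Scn2b*, *Cep164*) were named after their values were seen. Coordinates are from GENCODE vM21 (GRCm38, the same assembly as mm10). Alternatives were voom, other scalings, pseudocounts and filters, a replicate block, fits without each library and, added later, the 3 libraries with the least RPE signal and annotated exon lengths for the order of levels.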

Additional observations from a re-analysis of the deposited data

How the results depend on the processing

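The main analysis called 2643 genes. Scaling to an equal sum of rod markers called 9464 (97.5% of them lower), the 3 libraries with the lowest RPE sums called 806 (fewer samples), and fits without 1 library called 1704 to 2536, with the counts without WT b (1704) and *Mll1KO* c (1757) over 1.5 times lower. Members called were 5 to 7 of 8 in each alternative that kept at least 2 libraries per group. The counts that follow include the low-RPE fit, whose lone WT library has no spread of its own. Of 128 member values under alternatives, 112 kept their direction and their side of the threshold, 13 lost the call, 10 of them for *Sdk2*, 1 gained it, and 2 changed sign: *Cntn5* was at -0.11 under rod scaling (0.18 relative to the median of all genes), and *Cntn2* without 1 library ranged from -0.10 to 0.0026. Without 1 library *Cntn5* ranged from 0.0097 to 0.12. The log2 ratio of *Dscaml1* to *Dscam* differed between groups by -0.0568 to 0.0176 without 1 library. Of genes near *Kmt2a*, 20.6% were called lower with TMM, RLE or upper-quartile factors and 85.3% under rod scaling, against 35.3%, and of long genes 79.6% under rod scaling against 23.2%. With TMM 17.3% of long genes were called lower. Of all genes 14.5% were called lower, 10.3% with TMM and 81.4% under rod scaling. As most genes were called under rod scaling, the shares there cannot show whether either set stands apart. Why the main shares of both sets differ from that of all genes was not tested.

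With the replicate letter as a block, 2242 genes and 5 of 8 members were called, and *Sdk2* was not (limma adjusted p = 0.0665). The block cannot change the group difference in either log2 ratio, since each letter occurs in both groups. The letters do not pair the libraries: deviations from the group means of same-letter libraries correlated at -0.039, -0.19 and -0.007 for a, b and c across genes, and no library correlated best with its own letter.

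Depth limits *Cntn5* (131 to 197 reads) more than *Dscaml1* (5519 to 11189). No outlier test was made, for which groups of 3 libraries have little power, the labels give WT no Cre, and library scaling fixes where 0 lies for every member.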

Other observations

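Of the remaining cell types, blood vessels and astrocytes showed calls that belong to no comparison above. Of 8 listed endothelial and pericyte markers 3 were called lower and 1 higher by limma, with *Kdr*, a receptor of vascular endothelial growth factor and the most abundant, at -0.73 on the log2 scale. The related receptor gene *Flt1* was the one called higher, at 0.32 on the log2 scale. Of 4 listed astrocyte markers 3 were called higher, and *Gfap*, also made by reactive Muller glia, had an RPKM of 3.81, 4.40 and 4.16 in WT and 10.2, 8.50 and 8.42 in *Mll1KO*. *Pdgfra* was lowest at 0.16.

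None of 4 listed microglia markers (*C1qc* highest at 0.15, *C1qb* lowest at -0.12 and most abundant) was called by limma. None of 2 listed lens markers was called; *Cryab*, the most abundant, was at -0.19, and *Cryaa* had an RPKM of 32.1 in *Mll1KO* a, 12.4 in *Mll1KO* b and 6.54 to 7.51 in the others. Among RPE markers, *Pmel* ranged from 9.37 in *Mll1KO* a to 99.4 in WT c (log2 fold change -1.48, not called) and *Mitf* was highest at -0.07.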
